A study of Mus musculus with 14 samples.

Results

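Small RNA of the whole mouse epididymis was compared between the caput, the proximal region that receives spermatozoa from the testis, and the corpus, the region that follows it along the duct. The comparison covered every mature microRNA (miRNA) with a mean count above 10 in the caput or in the corpus, which held for 334 of the 900 miRNAs listed. The samples were 3 whole-tissue caput libraries and 2 whole-tissue corpus libraries from untreated male Swiss mice of 8 weeks. The vasculature of the animals was rinsed with PBS, material from 3 mice was pooled for a replicate, and the tissue entered RNA extraction with its lumen contents, so that spermatozoa and muscle were sequenced together with the epithelium. The series also holds 3 whole-tissue cauda libraries, the distal region in which spermatozoa are stored, and 2 libraries per region of isolated epithelial cells, pooled from 9 or more mice and freed of most spermatozoa and attached cells. The study found no labelling for the sperm markers that it used in such preparations. The methods describe pooled biological replicates and also libraries analysed in triplicate, and the labels do not say which libraries came from separate animals, so the p-values measure the spread between these libraries, which may be technical.

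A miRNA is cut from a hairpin by DROSHA and DICER1, and 1 or both arms of the hairpin (5p and 3p) can be loaded into an Argonaute protein as the guide. The guide finds its messenger RNAs mainly through its seed, bases 2 to 8 counted from the 5′ end, and lowers their stability and translation, so miRNAs that share a seed share most of their predicted targets. In the epididymis the caput and the corpus are the regions where spermatozoa acquire motility and the ability to fertilise, and the epithelium of each region has its own secretory program.

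The caput libraries held between 1724443 and 2135501 counts and the corpus libraries 1243398 and 1390826, with between 73.4 and 75.1% of the counts in the 10 most abundant miRNAs. Counts of replicate pairs differed well beyond counting noise (chi-square per degree of freedom of at least 13.8), so no file was taken for a second deposit of the same library, which does not say whether the libraries came from separate animals. Levels are given as CPM, the count as a share of the library total after edgeR's TMM scaling, and 10 counts correspond to values from 5.49 to 7.47 CPM depending on the library. Fold changes, standard errors and adjusted p-values are from limma-voom, with Benjamini-Hochberg adjustment over the 334 miRNAs. A miRNA is said to have risen, fallen or changed when its adjusted p was below 0.05 and its change at least 2-fold. In bulk tissue, fewer cells of a type and less RNA per cell cannot be told apart.

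The sequences below are those of miRNAs with the largest changes, of members of the X-linked cluster that rose, and of seed partners that did not move together, and capitals mark the seed. They are from RefSeq, in which 282 of the 334 names were matched, with positions on GRCm38.p6, the assembly of the mm10 build that the study used.
miR-196a-5p: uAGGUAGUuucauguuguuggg
miR-196b-5p: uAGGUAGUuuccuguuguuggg
miR-184-3p: uGGACGGAgaacugauaagggu
miR-190a-5p: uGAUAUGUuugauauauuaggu
miR-222-3p: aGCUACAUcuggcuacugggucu
miR-221-3p: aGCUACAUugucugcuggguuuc
miR-211-5p: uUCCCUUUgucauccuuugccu
miR-204-5p: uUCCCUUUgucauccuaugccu
miR-92a-3p: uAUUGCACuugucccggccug
miR-92b-3p: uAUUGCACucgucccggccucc
miR-25-3p: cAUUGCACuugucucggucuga
miR-107-3p: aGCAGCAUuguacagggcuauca
miR-103-3p: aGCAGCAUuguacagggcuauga
miR-146b-5p: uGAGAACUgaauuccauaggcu
miR-146a-5p: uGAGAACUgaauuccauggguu
miR-9-5p: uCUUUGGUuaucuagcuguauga
let-7b-3p: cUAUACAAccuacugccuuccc
miR-741-3p: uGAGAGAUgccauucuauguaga
miR-743b-3p: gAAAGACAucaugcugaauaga

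Of the 334 miRNAs, 47 (14.1%) rose and 53 (15.9%) fell from the caput to the corpus, so that 100 (29.9%) changed. The median log2 fold change was -0.05, and the 2 corpus libraries lay outside the range of the 3 caput libraries for 250 miRNAs (74.9%), among them all 100 that changed. When counts were divided by library totals with no TMM factor, the median shifted by 0.33 (log2), to 76 rises and 35 falls, or 68.5% rises among the changes against 47% with TMM factors, so the balance of rises and falls rests on the scaling. The share that changed was 42.6% of the 47 miRNAs under 10 CPM, 33.1% of the 127 between 10 and 100 CPM, 31.96% of the 97 between 100 and 1000 CPM and 11.1% of the 63 above 1000 CPM. The classes below 100 CPM hold all 52 miRNAs with a mean count above 10 in 1 region alone, which passed the filter only through the region where they were high, and among the 282 present in both regions the shares were 0 of 7, 27.8% of 115, 31.96% of 97 and 11.1% of 63. Identical counts in every library, from mature sequences that the counting did not separate, join 13 of the miRNAs into 6 groups, and with each group counted once 95 of 327 changed, 44 rising and 51 falling.

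**Figure D1:**
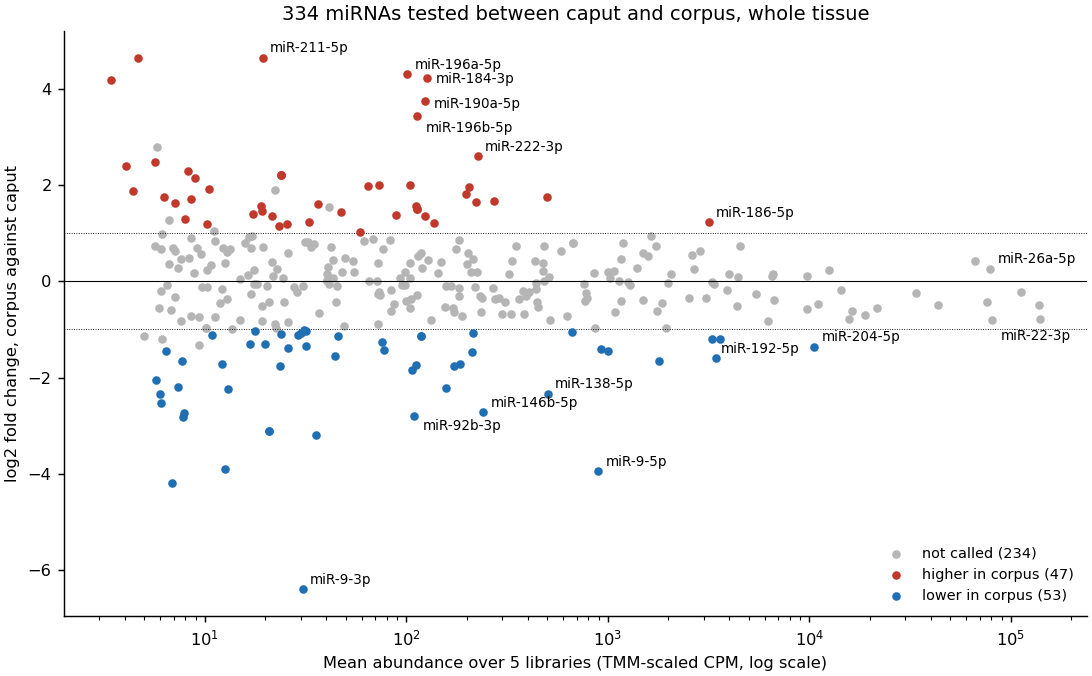
Each point is 1 of the 334 miRNAs, placed by its mean abundance over the 5 libraries (CPM, log scale) and its log2 fold change from caput to corpus, with red for the 47 that rose, blue for the 53 that fell and dotted lines at 2-fold. Changes of more than 8-fold lie below 1000 CPM, and the most abundant miRNAs on the right stay within the dotted lines.

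Together the 100 changed miRNAs made up from 3.50 to 3.79% of a caput library and 2.78 and 2.75% of the corpus libraries. Those that rose went from between 0.308 and 0.342% of the counts to 1.12 and 1.29%, and those that fell went from between 3.19 and 3.46% to 1.66 and 1.46%. Above 1000 CPM the only rise was that of miR-186-5p, and the 6 falls were those of miR-204-5p, miR-429-3p, miR-148a-5p, miR-340-5p, miR-192-5p and miR-135a-5p. With library totals there were 5 rises and 4 falls above 1000 CPM, with let-7d-5p, let-7i-5p, miR-101b-3p and miR-199a-5p also called higher and miR-340-5p and miR-192-5p not called.

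The largest rise among well-counted miRNAs was that of miR-196a-5p, which is encoded within the Hox clusters, the arrays of genes that set position along the body axis. It stood at 9.65, 11.7 and 13.7 CPM in the caput libraries and at 224 and 247 CPM in the corpus libraries, a 19.7-fold rise (log2 fold change 4.30, standard error 0.22, adjusted p = 4.0e-07). Its relative miR-196b-5p went from 21.9, 21.4 and 24.7 CPM to 217 and 280.2 CPM, a 10.8-fold rise (log2 3.43, standard error 0.22, adjusted p = 1.6e-06). Both caput levels were low and tightly grouped, and no corpus library came near them. The 2 mature sequences differ at 1 of 22 positions and have the same seed. Mir196b (mature sequence at chr6:52230129-52230150, minus strand) lies in an exon of Hoxa9, while miR-196a-5p comes from 2 loci, chr11:96265187-96265208 in no annotated gene and chr15:102973365-102973386 in an intron of Hoxc5, both on the plus strand. The opposite arm miR-196a-2-3p, which comes from the chromosome 15 locus alone, had 1 count over the 3 caput libraries and 24 over the 2 corpus libraries, a ratio of 40.5 with an exact 95% counting interval from 6.60 to 1664.

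miR-184-3p and miR-190a-5p were the next largest. miR-184-3p, a miRNA best known from the eye and the brain, had 23.2, 11.7 and 13.2 CPM in the caput and 260.1 and 327 CPM in the corpus, an 18.8-fold rise (log2 4.23, standard error 0.26, adjusted p = 1.1e-06). Its locus at chr9:89802263-89802284 on the minus strand lies in no annotated gene. miR-190a-5p, from an intron of Tln2, the gene of the adhesion protein talin 2, had 19.95, 18.6 and 22.5 CPM in the caput and 246 and 310 CPM in the corpus, a 13.4-fold rise (log2 3.74, standard error 0.18, adjusted p = 4.0e-07). Caput and corpus libraries were separated by a wide gap for both. miR-222-3p, which with miR-221-3p represses the cell cycle inhibitor Cdkn1b, had 72.1, 76.6 and 74.7 CPM in the caput and 416 and 489.5 CPM in the corpus, a 6.06-fold rise (log2 2.60, standard error 0.16, adjusted p = 1.1e-06). The other 5 of the 10 largest rises, miR-741-3p, miR-465c-5p, miR-871-5p, miR-470-5p and miR-743b-3p, belong to 1 X-linked cluster and rose between 3.52-fold and 3.99-fold.

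The largest fall among well-counted miRNAs was that of miR-9-5p, a miRNA of neural progenitors and neurons. It had 1353, 1546 and 1372 CPM in the caput libraries and 146 and 59.7 CPM in the corpus libraries, a 15.3-fold fall (log2 -3.94, standard error 0.26, adjusted p = 1.8e-06). The 2 corpus libraries differed more than 2-fold from each other, and the higher of them was still far under every caput library. The log2 fold change was -3.22 without the second corpus library and -4.57 without the first. The other arm, miR-9-3p, had 247 counts over the caput libraries and 1 over the corpus libraries, a ratio of 147 with an exact 95% counting interval from 26.1 to 5811, and its fitted log2 fold change of -6.40 depends on how a count of 0 is treated and was -5.70 without the first corpus library and -7.04 without the second. miR-9-5p comes from 3 loci, on chromosomes 3, 7 and 13, each within a long noncoding RNA gene, and its counts do not say which of them was active.

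miR-138-5p, a miRNA of neurons that acts in dendritic spines, had 633, 917 and 652 CPM in the caput and 225 and 92.5 CPM in the corpus, a 5.04-fold fall (log2 -2.33, standard error 0.30, adjusted p = 0.00012). The corpus libraries differed more than 2-fold here as well, with the same library lower, and the log2 fold change was -1.62 without that library and -2.96 without the other. miR-148a-5p, the minor arm of a hairpin that gives 1 of the most abundant miRNAs of the tissue, had 2383, 2676 and 2326 CPM in the caput and 896 and 678 CPM in the corpus, a 3.16-fold fall (log2 -1.66, standard error 0.13, adjusted p = 5.8e-06). miR-10a-3p and let-7b-3p, also minor arms, fell with log2 fold changes of -1.84 and -1.72. miR-149-5p, from an intron of Gpc1, went from 134, 155 and 177 CPM to 49.3 and 43.3 CPM (log2 -1.74, standard error 0.20, adjusted p = 5.0e-05). The fall of miR-467a-5p (log2 -1.75) belongs with its family, below.

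**Figure D2:**
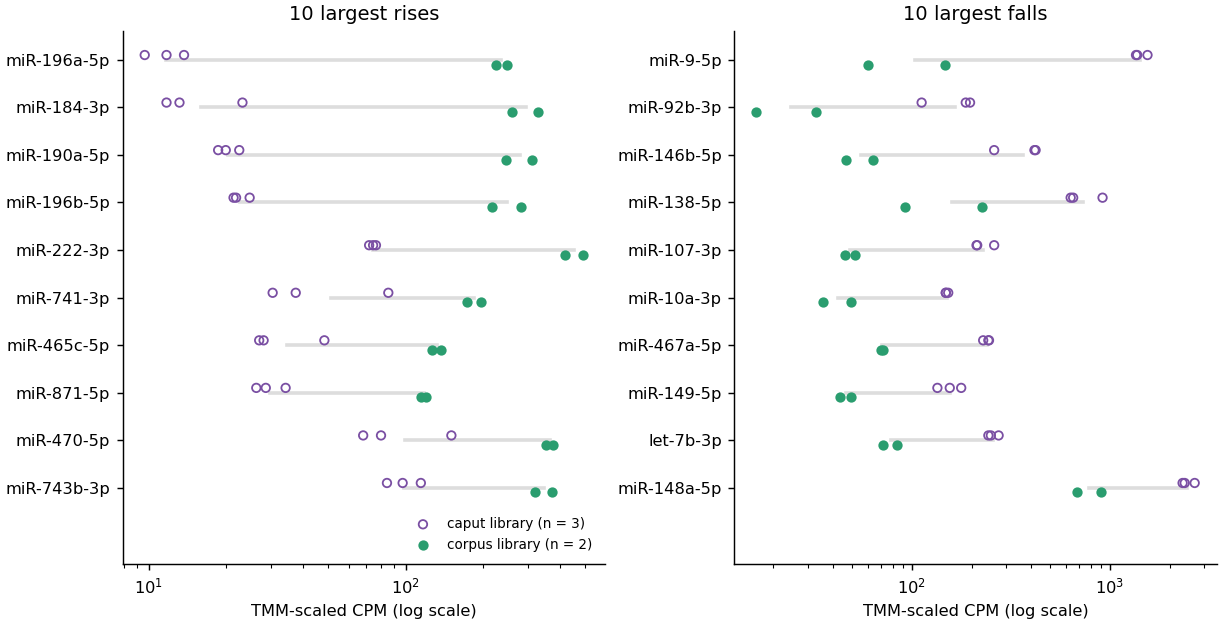
CPM on a log scale of the 10 largest rises (left) and the 10 largest falls (right) among miRNAs with a mean count above 100 in the higher region, with open circles for the 3 caput libraries, filled circles for the 2 corpus libraries and grey bars between the region means. The 20 were chosen among miRNAs whose regions do not overlap, as 74.9% of all did not, and the caput libraries spread most for miR-741-3p and the corpus libraries for miR-9-5p and miR-138-5p.

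Among the miRNAs matched to RefSeq, 40 seeds were shared by 2 or more members, and 17 of these held a member that changed. Of the 8 with 2 or more changed members, 6 had all of these in 1 direction, among them the seed of the 3 miR-465 3p arms, whose counts are identical. In the other 2 members changed in opposite directions. The first is the seed UCCCUUU of miR-204-5p and miR-211-5p, which differ at 1 of 22 positions and lie in introns of the ion channel genes Trpm3 and Trpm1. miR-204-5p fell 2.56-fold from 14148, 14183 and 13636 CPM in the caput to 5934 and 5045 CPM in the corpus (log2 -1.35, standard error 0.11, adjusted p = 5.8e-06), while miR-211-5p rose 24.9-fold from 0.643, 1.38 and 3.29 CPM to 43.3 and 48.6 CPM (log2 4.64, standard error 0.51, adjusted p = 4.9e-05). The 2 were summed to 14149, 14184 and 13640 CPM in the caput and 5978 and 5093 CPM in the corpus, so the seed as a whole followed miR-204-5p. Counts of both include fractions, taken here as reads divided between mature sequences, and how reads shared by the 2 were divided was not tested. miR-211-5p averaged 3 counts in the caput libraries and 65.5 in those of the corpus, passed the filter through the corpus alone, and could be tested only because it was high there.

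The other is the seed AUUGCAC. miR-92a-3p, encoded at chr14:115044476-115044496 (plus strand) in Mir17hg, the host of the miR-17-92 cluster, and at chrX:52741854-52741874 (minus strand), rose 3.34-fold from 249, 268 and 253 CPM to 888 and 828 CPM (log2 1.74, standard error 0.10, adjusted p = 8.1e-07), while miR-92b-3p fell 6.94-fold from 112, 187 and 197 CPM to 32.9 and 16.4 CPM (log2 -2.79, standard error 0.39, adjusted p = 0.00021). In the caput the levels of miR-92a-3p were above those of miR-92b-3p in every library, and in the corpus the distance had widened. Its counts do not say which locus they come from, and of the other miR-17-92 members miR-17-5p, miR-20a-5p and miR-19a-3p had log2 fold changes of -0.38, -0.34 and -0.26, while miR-18a-5p rose (log2 1.19). miR-25-3p, the most abundant miRNA with this seed, stood at 1151, 1081 and 1184 CPM in the caput and 1138 and 1136 CPM in the corpus (log2 -0.00, standard error 0.09, adjusted p = 0.99).

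In 8 other seeds of 2 members only 1 member changed. In 5 of them the member that changed was miR-148a-5p, miR-708-5p, miR-181c-3p, miR-326-3p or miR-30c-1-3p, and the remaining 3 pairs, chosen after their values were seen, are given in full. miR-107-3p, from an intron of Pank1, went from 214, 260.2 and 212 CPM to 51.6 and 45.9 CPM (log2 -2.22, standard error 0.17, adjusted p = 5.8e-06), while miR-103-3p, from introns of Pank2 and Pank3 and differing at 1 of 23 positions, stood at 3152, 3657 and 3132 CPM and then 3327 and 3203 CPM (log2 -0.02, adjusted p = 0.89). miR-146b-5p, which represses adaptors of Toll-like receptor signalling, went from 416, 260.2 and 421 CPM to 63.5 and 46.6 CPM (log2 -2.72, standard error 0.28, adjusted p = 3.9e-05), while miR-146a-5p stood at 104, 58.7 and 120 CPM and then 97.2 and 112 CPM (log2 0.20, adjusted p = 0.54). In the caput miR-146b-5p exceeded miR-146a-5p in every library, and in the corpus the order was the opposite. miR-221-3p, which lies within 1 kb of miR-222-3p on the X chromosome, stood at 515, 510 and 461 CPM and then 350 and 379 CPM (log2 -0.44, standard error 0.13, adjusted p = 0.015), a change under 2-fold in the opposite direction to the rise of miR-222-3p. The counts of miR-107-3p and miR-146b-5p include fractions. For each of these pairs the difference between the members was not tested.

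**Figure D3:**
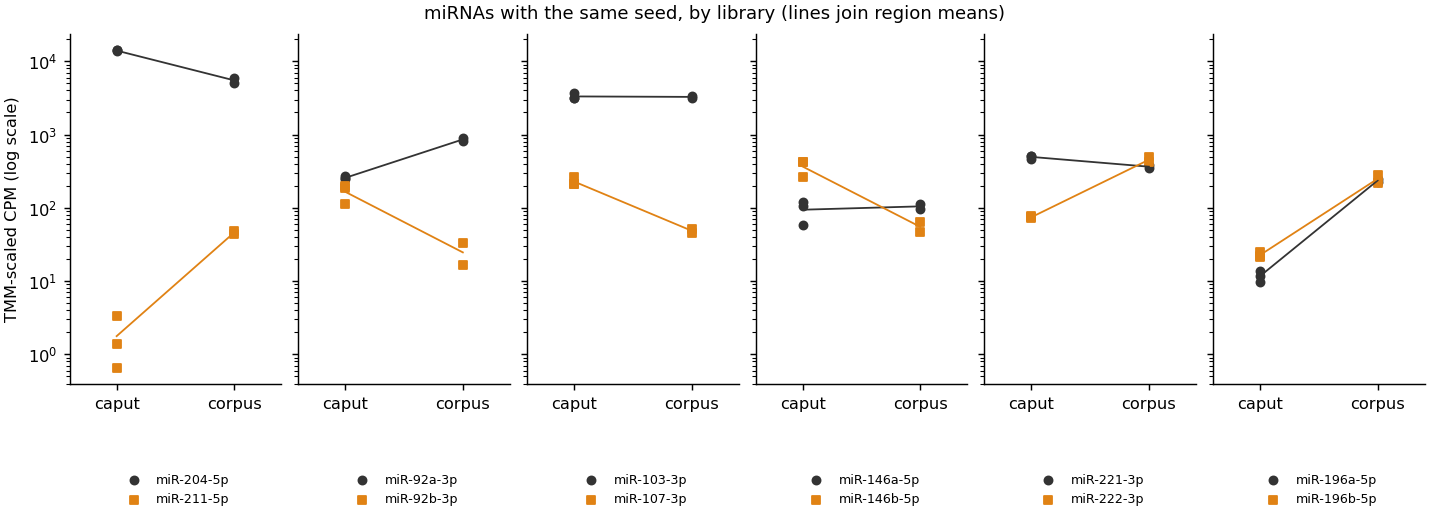
CPM by library, on a shared log scale, of 6 pairs of miRNAs with the same seed, with points for the 3 caput and 2 corpus libraries and lines that join the region means. The lines cross for miR-146a-5p and miR-146b-5p and for miR-221-3p and miR-222-3p, run apart for miR-92a-3p and miR-92b-3p, approach for miR-204-5p and miR-211-5p, and rise together for miR-196a-5p and miR-196b-5p.

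The largest group that moved 1 way was a cluster of hairpins on the X chromosome, called here the miR-465 to miR-883 cluster after the lowest and highest numbers among its tested members. These miRNAs are expressed in the testis, where they mark germ cells. The 15 hairpins of the 18 members tested span 62.4 kb, chrX:66776757-66839125. All 18 had positive log2 fold changes, with a median of 1.94, and 17 rose, against 14.1% of all miRNAs tested. Of the 18, 6 passed the filter only through the corpus and hold 5 of the rises, and the 12 present in both regions all rose. Their summed level was 904, 550.0 and 547.4 CPM in the caput libraries and 2200 and 2331 CPM in the corpus libraries. The first caput library was the highest of the 3 for 12 of the 18 members, and the sum did not overlap between the regions with or without it.

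Members of the cluster differed in level and in the spread of their caput libraries. miR-881-3p, the most abundant of them, had 174, 139 and 125 CPM in the caput and 431 and 487 CPM in the corpus (log2 1.67, standard error 0.21, adjusted p = 9.6e-05). miR-741-3p had 85.6, 30.4 and 37.3 CPM in the caput and 173 and 196 CPM in the corpus (a 3.99-fold rise, standard error 0.40 on the log2 scale, adjusted p = 0.0020), and its caput libraries spread nearly 3-fold. miR-465a-3p, miR-465b-3p and miR-465c-3p have identical counts and are 1 profile, with 9.65, 10.4 and 8.78 CPM in the caput and 45.6 and 44.6 CPM in the corpus (log2 2.21, adjusted p = 4.2e-05). The 1 member that did not pass, miR-465b-5p, had 0, 4.14 and 2.75 CPM in the caput and 9.72 and 12.5 CPM in the corpus (adjusted p = 0.40). DESeq2's Wald test called 14 of the 18, and leaving out the third caput library or the second corpus library left 13.

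The counterpart on the side of the falls was the group of miR-297, miR-466, miR-467 and miR-669, multicopy families that lie largely in an intron of Sfmbt2, a Polycomb gene. Of 15 members tested, 11 fell and 0 rose, against 15.9% falls among all miRNAs tested, and all 15 had negative log2 fold changes, with a median of -1.44. Of the 15, 8 passed the filter only through the caput and hold 6 of the falls, and of the 7 present in both regions 5 fell. Their summed level was 562, 594 and 539 CPM in the caput and 184 and 184 CPM in the corpus, a 3.07-fold difference of the means. miR-467a-5p led the group by level, with 243, 245 and 229 CPM in the caput and 71.7 and 69.6 CPM in the corpus (log2 -1.75, standard error 0.16, adjusted p = 1.7e-05). miR-669a-5p and miR-669p-5p, with identical counts, had 31.5, 33.1 and 31.8 CPM in the caput and 4.48 and 2.62 CPM in the corpus (log2 -3.12, standard error 0.37, adjusted p = 7.2e-05). The members are near copies of each other, so a read can belong to several. DESeq2's Wald test called 6 of the 15, and among the 6 that reached 10 counts in each of the 5 libraries 5 were called.

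**Figure D4:**
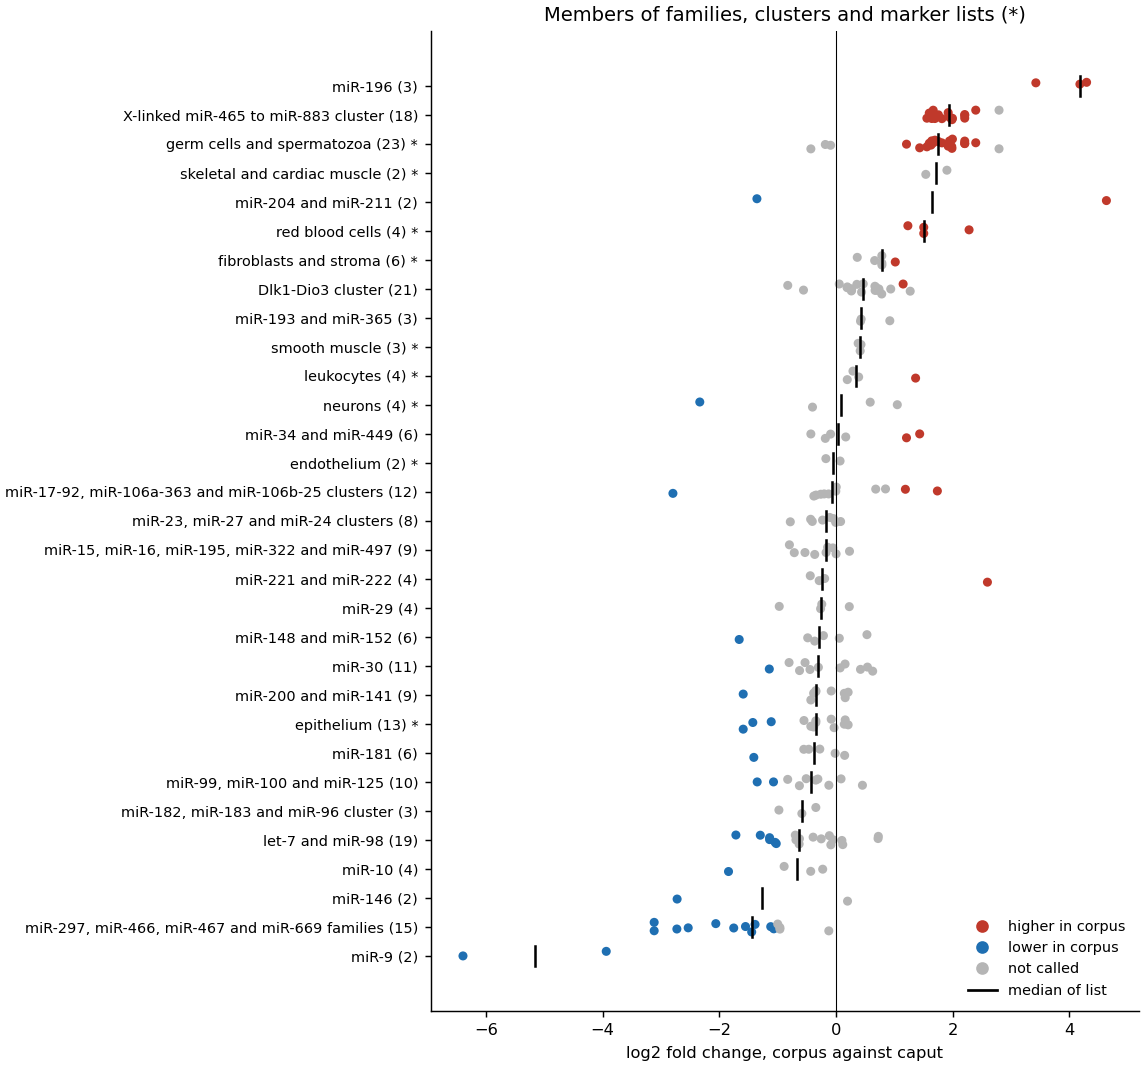
log2 fold change from caput to corpus of the tested members of each family, cluster and marker list (asterisk), with the number tested in brackets, red for members that rose, blue for those that fell, grey for the rest and a black bar at the median of the list. The miR-196 family, the X-linked cluster and the red blood cell markers lie to the right of 0 and the miR-9 and miR-297 to miR-669 families to the left, while most of the other families straddle 0.

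The let-7 family, regulators of developmental timing that also repress Lin28, had members of both arms. The 9 guide strands with the seed GAGGUAG held no member that changed in limma-voom, although 7 of the 9 had an adjusted p below 0.05 and failed by the 2-fold rule alone, with log2 fold changes between -0.70 and 0.73. Of these let-7d-5p was higher in the corpus by 0.73 (standard error 0.08, adjusted p = 5.8e-05) and let-7i-5p by 0.72 (standard error 0.09, adjusted p = 9.8e-05), both under 2-fold. The 5 minor arms with the seed UAUACAA all fell, with log2 fold changes between -1.72 and -1.02, among them let-7b-3p, which went from 243, 274 and 250.4 CPM to 84.5 and 71.5 CPM (standard error 0.14, adjusted p = 7.7e-06). let-7a-1-3p and let-7c-2-3p, 2 of the 5, have identical counts. Of the other minor arms let-7e-3p fell (log2 -1.30), while let-7d-3p (-0.69), let-7c-1-3p (-0.11) and let-7i-3p (-0.05) did not change. Over the 19 members of the family 6 fell, against 15.9% of all miRNAs tested, and this number was 3 by DESeq2's Wald test, 3 without the second caput library, and 1 with scaling by library totals, under which 2 members rose.

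Other families showed a change in 1 or 2 members. In the miR-200 and miR-141 family, which maintains epithelial identity by repressing Zeb1 and Zeb2, miR-429-3p fell from 4415, 5238 and 4356 CPM to 1809 and 1322 CPM (log2 -1.59, standard error 0.15, adjusted p = 2.4e-05) and the other 8 members did not change. miR-181c-3p (log2 -1.41) was the 1 of 6 miR-181 members that fell, and miR-125a-3p (-1.35) and miR-125b-1-3p (-1.07) were the 2 of 10 in the miR-99, miR-100 and miR-125 families, shares near the 15.9% of all miRNAs that fell. The 2 became 1 with DESeq2's Wald test, with library totals and without the second caput or the first corpus library. In the miR-34 and miR-449 family, which is typical of ciliated and germ cells, the minor arms miR-34c-3p (log2 1.44) and miR-34b-3p (1.21) rose, 2 of 6 members, against 14.1% of all miRNAs tested. The abundant miR-34c-5p stood at 3390, 4752 and 4237 CPM and then 3250 and 3986 CPM (adjusted p = 0.33). None of the 9 members of the miR-15, miR-16, miR-195, miR-322 and miR-497 families, the 8 of the miR-23, miR-27 and miR-24 clusters, the 4 of the miR-29 family, the 3 of the miR-182, miR-183 and miR-96 cluster and the 3 of the miR-193 and miR-365 families changed. Of the 27 miRNAs of these families 13 had an adjusted p below 0.05 in limma-voom and failed by the 2-fold rule alone, edgeR and DESeq2 called 0, and library totals gave 1 rise. In the imprinted Dlk1-Dio3 cluster 19 of 21 members had positive log2 fold changes (median 0.47) and 1 passed, miR-379-5p (log2 1.15, standard error 0.22, adjusted p = 0.0016), against 14.1% rises among all miRNAs tested. It is among the 15 members present in both regions. With library totals 7 members passed, and without the first caput library 3.

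By chromosome, 42 of the miRNAs tested come from the X chromosome alone, and 19 of these rose and 2 fell, with a median log2 fold change of 0.66. Among all miRNAs tested 14.1% rose and 15.9% fell. The 17 of the cluster are among the 19. Of the other 240 matched miRNAs 25 rose and 40 fell, with a median of -0.09. They include miRNAs with loci on the X and on another chromosome, such as miR-92a-3p.

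The 10 most abundant miRNAs did not change by the 2-fold rule, although all 10 had an adjusted p below 0.05, which with library totals held for 4, miR-22-3p, miR-191-5p, miR-26a-5p and miR-143-3p. miR-22-3p took 13.1, 16.2 and 13.9% of the counts of the caput libraries and 10.7 and 10.5% of those of the corpus libraries (log2 -0.77, standard error 0.11, adjusted p = 0.00021). miR-191-5p was lower in the corpus (log2 -0.81, standard error 0.10, adjusted p = 7.2e-05). miR-26a-5p, which represses Ezh2, took 6.18, 6.71 and 6.05% in the caput and 9.49 and 9.51% in the corpus (log2 0.26, standard error 0.10, adjusted p = 0.043), and the smooth muscle miRNA miR-143-3p took 5.85, 4.81 and 4.51% and then 8.59 and 8.30% (log2 0.42, standard error 0.10, adjusted p = 0.0051). The remaining 6, miR-148a-3p, miR-10b-5p, miR-10a-5p, miR-21a-5p, let-7f-5p and miR-181c-5p, had negative log2 fold changes between -0.55 and -0.23. The smallest of these values lie within the shift between scalings, since miR-10b-5p and let-7f-5p turned positive when library totals were used.

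Of the 334 miRNAs, 282 (84.4%) had a mean count above 10 in both regions, 30 in the caput alone and 22 in the corpus alone. The caput libraries held more counts, and with a threshold in CPM the numbers were 18 and 29, so their order depended on the threshold. Those in 1 region alone passed the filter only through the region where they were high, so their number of changes is not set against that of the rest. Mean counts just above the threshold were those of miR-222-5p (10.3 in the caput) and of miR-154-5p and miR-190a-3p (10.5 in the corpus), and just outside it were miR-101a-5p and miR-144-5p, with a mean of 10 in 1 region, and miR-466b-3p (9.78 in the caput). Of those just above the threshold only miR-190a-3p changed (log2 1.88, standard error 0.62, adjusted p = 0.025), with log2 fold changes from 1.19 to 2.45 when 1 library was left out. Those just outside it were not among the 334 tested. In the caput alone, the highest mean counts were those of miR-582-5p, miR-9-3p, the pair miR-669a-5p and miR-669p-5p, and miR-31-3p. miR-582-5p had 50.2, 55.9 and 59.3 CPM in the caput and 2.99 and 9.84 CPM in the corpus (log2 -3.20, standard error 0.41, adjusted p = 0.00012), and its log2 fold change was -2.45 without the first corpus library and -3.99 without the second. In the corpus alone they were those of miR-211-5p, miR-880-3p, miR-708-5p, miR-144-3p and miR-878-5p, and apart from miR-211-5p none of these exceeded 20 CPM in a corpus library. miR-708-5p, from 1.29, 4.83 and 6.04 CPM to 15.7 and 17.1 CPM, rose (log2 2.14, standard error 0.48, adjusted p = 0.0038). miR-880-3p and miR-878-5p belong to the X-linked cluster.

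Both arms were tested for 85 hairpin names. The log2 fold changes of the arms had the same sign for 60 of them, both arms changed for 12, in the same direction for each of the 12, and 1 arm changed for 23. These counts are to be read against the 29.9% of all miRNAs tested that changed. miR-465a and miR-465c, 2 of the 12, share the counts of their 3p arm. An arm that passed the filter through 1 region alone had to be higher there. For the 64 hairpins whose arms were both present in both regions, 44 had the same sign, both arms changed for 6, in opposite directions for 0, and 1 arm changed for 13. Of all miRNAs present in both regions 24.8% changed. miR-9, miR-31, miR-190a, miR-335, miR-470 and miR-871 were among the 12. The arms stood furthest apart for miR-582, whose 5p arm fell (log2 -3.20) while its 3p arm was at 0.10 (standard error 0.33), so that the 3p arm went from 28.0 to 77.6% of the 2 arms together. For miR-222 the 3p arm rose by 2.60 and the 5p arm was at -0.19 (standard error 0.47). For miR-3068 the 5p arm fell (log2 -1.66) and the 3p arm was at 0.88 (standard error 0.14), and with library totals both arms passed, at -1.33 and 1.22. The major arm differed between the regions for 7 of the 85.

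Markers of other cell types were followed because the tissue was sequenced whole, and their counts are to be read against the 14.1% of all miRNAs tested that rose and the 15.9% that fell. All 4 red blood cell markers tested rose, with a sum of 162, 154 and 147 CPM in the caput and 467 and 404 CPM in the corpus, and miR-451a itself went from 26.4, 19.3 and 18.1 CPM to 58.3 and 42.7 CPM (log2 1.23, standard error 0.43, adjusted p = 0.033). miR-486a-5p and miR-486b-5p, 2 of the 4, have identical counts, miR-144-3p passed the filter through the corpus alone, so that 3 of the 4 were present in both regions, and miR-451a passed in 4 of 8 fits that each left out 1 library. Of 6 markers of fibroblasts and stroma, all had positive log2 fold changes (median 0.79) and miR-214-3p rose (log2 1.02), which was lost without the first caput or the second corpus library, while with library totals 4 of the 6 rose. The stroma markers had sums between 2108 and 2414 CPM in the caput and 3720 and 3864 CPM in the corpus. Of 4 leukocyte markers, miR-150-5p, a miRNA of mature lymphocytes, rose from 52.8, 50.4 and 59.8 CPM to 135 and 147 CPM (log2 1.37, standard error 0.25, adjusted p = 0.0011), and the sum was between 960.02 and 1159 CPM and then 1158 and 1447 CPM.

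None of the 3 smooth muscle markers changed by limma-voom, edgeR or DESeq2, 2 of them having an unadjusted p below 0.05, and their sum was between 53244 and 65998 CPM in the caput and 80374 and 76279 CPM in the corpus. The 2 endothelial markers summed to between 14781 and 18257 CPM and then 14749 and 13950 CPM. The 2 skeletal and cardiac muscle markers that could be tested summed to between 31.8 and 33.1 CPM in the caput and to 60.5 and 159 CPM in the corpus, and 5 of the 13 listed were at 0 in all 5 libraries. miR-133a-3p stood at 16.7, 27.6 and 22.5 CPM in the caput and 38.9 and 101 CPM in the corpus (log2 1.54, standard error 1.00, adjusted p = 0.21). miR-1a-3p stood at 16.1, 5.52 and 9.33 CPM and then 21.7 and 58.4 CPM (log2 1.90, standard error 1.2, adjusted p = 0.20). Neither passed, nor with edgeR or DESeq2, and 0 of the 2 had an unadjusted p below 0.05, while both passed in the fit of the 5 caput and corpus libraries alone and without the first cauda library. Of 13 epithelial markers miR-429-3p, miR-203-3p and miR-203-5p fell and 0 rose, with sums between 22899 and 24893 CPM in the caput and 19242 and 18392 CPM in the corpus, and without the second corpus library 1 of the 13 fell. miR-203-5p passed the filter through the caput alone, and 2 of the 12 markers present in both regions fell. Of 23 markers of germ cells and spermatozoa 19 rose, 17 of them from the X-linked cluster, with sums between 4595 and 5685 CPM in the caput and 5914 and 6814 CPM in the corpus. Of the 17 markers present in both regions 14 rose. The 3 with negative log2 fold changes were miR-34c-5p (-0.18), miR-34b-5p (-0.09) and miR-449a-5p (-0.43). miR-34c-5p held most of the summed level, with means of 4126 CPM in the caput and 3618 CPM in the corpus. Of 4 neuronal markers miR-138-5p fell and 0 rose, with sums between 849.99 and 1148 CPM and then 467 and 343 CPM. The lower sum was mostly that of miR-138-5p, with a mean of 734 CPM in the caput and 159 CPM in the corpus. miR-128-3p had a log2 fold change of -0.40 (adjusted p = 0.036), short of 2-fold, miR-132-3p and miR-218-5p had positive ones (1.05 and 0.59), and the median of the list was 0.09. The part of each of these cell types in the changes above was not tested.

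In the isolated epithelial cells, 25 of 205 miRNAs (12.2%) changed between caput and corpus in the same kind of fit, at totals between 89039 and 362867 counts per library. Leaving out 1 of the 4 epithelial caput and corpus libraries left between 10 and 25. Of the 334 miRNAs of whole tissue, 184 were tested under the same name in both preparations, and the log2 fold changes had the same sign for 150 of them (81.5%). Of the 48 among these that changed in whole tissue, 44 had the same sign in epithelial cells, 17 changed there in the same direction and 0 in the opposite one. miR-196a-5p stood at 37.4 and 32.3 CPM in the epithelial caput and 919 and 1136 CPM in the epithelial corpus (log2 4.81, standard error 0.36, adjusted p = 0.00018), and miR-9-5p at 599 and 400.3 CPM and then 32.5 and 10.2 CPM (log2 -4.34, standard error 0.66, adjusted p = 0.0042). In the epithelial corpus libraries 10 counts correspond to 81.3 and 102 CPM. miR-9-5p therefore passed the epithelial filter through the caput alone, where it had to be higher, as did any of the 184 that passed through 1 region alone. Of 6 members of the X-linked cluster tested there, 4 rose, and the log2 fold changes of the 6 lay between 2.52 and 3.33. The highest was that of miR-881-3p, with 28.1 and 32.3 CPM in the epithelial caput and 455 and 205 CPM in the epithelial corpus (log2 3.33, standard error 0.69, adjusted p = 0.013). In the epithelial caput libraries 10 counts correspond to 31.2 and 32.3 CPM, so miR-881-3p passed the filter through the corpus alone. A member that passed in this way had to be higher in the corpus, and the 6 were not divided by this.

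The 4 miRNAs that changed in whole tissue with the opposite sign in epithelial cells were miR-150-5p, miR-214-3p, miR-326-3p and miR-125b-1-3p, with epithelial log2 fold changes of -0.61, -0.27, -0.16 and 0.10 that did not pass. The red blood cell markers were not among the 184, but the epithelial table lists 2 under older names. miR-486-5p stood at 302 and 252 CPM in the epithelial caput and 146 and 348 CPM in the epithelial corpus (log2 -0.31, standard error 0.54, adjusted p = 0.71), and miR-451 at 140.3 and 113 CPM and then 65.0 and 51.2 CPM (log2 -1.02, standard error 0.47, adjusted p = 0.17). Whether the preparations differed was tested by an interaction term for the 184 miRNAs, and 6 (3.26%) had an adjusted p below 0.05. They were miR-181c-5p, miR-205-5p, miR-204-5p, miR-9-3p, miR-141-3p and miR-150-5p. Leaving out 1 caput or corpus library at a time left between 0 and 4 calls, with the sign of each of the 6 differences the same in all 9 fits, where that of miR-9-3p rests on corpus libraries with 0 or 1 counts.

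**Figure D5:**
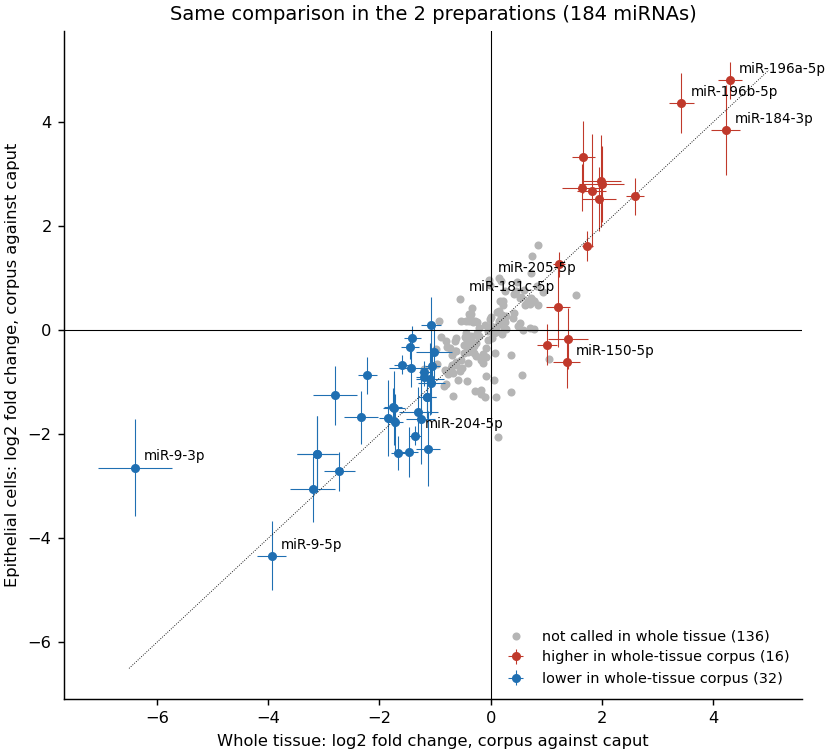
log2 fold change from caput to corpus in whole tissue (horizontal) against isolated epithelial cells (vertical) for the 184 miRNAs tested in both, with standard errors drawn for the 48 that changed in whole tissue (16 risen in red, 32 fallen in blue) and a dotted line of equality. The 2 miR-196 members and miR-184-3p lie at the upper right and miR-9-5p at the lower left near the line, while miR-150-5p lies below 0 on the vertical axis.

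The changes from caput to corpus were set beside those from corpus to cauda in the same 8 libraries, in which 93 of 341 miRNAs (27.3%) changed. The comparisons share the corpus libraries, so a corpus value that lies high by library spread adds both to a rise into the corpus and to a fall after it. Of the 47 miRNAs that rose into the corpus, 14 rose again and 9 fell in the cauda. Of those that did not change from caput to corpus 229 were tested, and 21 rose and 29 fell in the cauda. miR-196b-5p rose again, to 930.0 ± 129 CPM in the cauda (SD, n = 3), from 249 ± 44.3 CPM in the corpus (SD, n = 2). miR-184-3p fell from 293 ± 47.2 CPM (SD, n = 2) to 88.1 ± 10.9 CPM (SD, n = 3) and miR-190a-5p from 278 ± 45.1 to 74.0 ± 4.35 CPM (SD, n = 2 and n = 3), so that both were highest in the corpus. miR-211-5p, miR-92a-3p and miR-186-5p likewise fell in the cauda, with log2 fold changes of -4.01, -1.31 and -1.17. Of the 53 that fell into the corpus, 39 were counted highly enough to be tested from corpus to cauda, and of these 6 fell again and 4 rose. miR-204-5p fell again (log2 -4.07, standard error 0.12, adjusted p = 4.2e-09), and miR-31-5p rose, from 102 ± 2.96 CPM (SD, n = 2) to 275 ± 33.9 CPM (SD, n = 3), close to its 284 ± 26.7 CPM in the caput (SD, n = 3). miR-9-5p and miR-146b-5p stood at 76.4 ± 5.52 and 48.3 ± 9.95 CPM in the cauda (SD, n = 3), with adjusted p-values of 0.43 and 0.62 against the corpus.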

How the data were processed

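Small RNA libraries (Illumina TruSeq, HiSeq 2000, single-end) were made from whole caput, corpus and cauda and from isolated epithelial cells. The authors screened and trimmed the reads, aligned them to the mm10 genome and to the miRBase mature sequences, and deposited expected counts per mature miRNA and library, some of them fractions; how reads that match several miRNAs were assigned is not given in the sources used here. The submitters' processing notes name CASAVA 1.8.2 and Bowtie 1.1.1. Here the counts were rounded to whole numbers, which changed library totals by at most 0.00017%, and a constant of 0.001 was removed from the epithelial table.

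The 8 whole-tissue libraries were fitted together by limma-voom (R 4.3.3, limma 3.58.1) with TMM factors from edgeR 4.0.16 on the 360 miRNAs with a mean count above 10 in any region. The caput to corpus contrast was adjusted by the Benjamini-Hochberg method over the 334 above 10 in caput or corpus, and called where the adjusted p was under 0.05 and the change 2-fold or more. The epithelial libraries were fitted in the same way, and the interaction over all 14 libraries was called by adjusted p alone. The scripts were tested on simulated data. Alternatives included edgeR's quasi-likelihood test, DESeq2 1.42.0, other scalings and filters, a replicate block and leaving out each library. Counting intervals cover counting error only.

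Named in full were the 10 largest rises and falls among called miRNAs with a mean count above 100 in the higher region and no overlap of libraries, the 10 most abundant, the leading members of each list, those present in 1 region alone and the hairpins with unlike arms. The members, the families and the marker lists were chosen with earlier results of these data known.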

Additional observations from a re-analysis of the deposited data

Results flagged for a closer look

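The change from caput to corpus differed between isolated epithelial cells and whole tissue for 6 of 184 miRNAs by the interaction term in limma-voom, each given as the epithelial minus the whole-tissue log2 fold change. The interaction was fitted over all libraries together with its own TMM factors, and the change in each preparation is from that preparation's own fit, so the 2 changes do not subtract exactly to the difference. miR-181c-5p differed by 1.06 (standard error 0.18, adjusted p = 0.0063), from -0.55 in whole tissue to 0.61 in epithelial cells. miR-205-5p, an epithelial miRNA, differed by 0.90 (adjusted p = 0.034), from -0.03 to 0.97. miR-141-3p, of the miR-200 family, differed by 0.74 (adjusted p = 0.046), from 0.16 to 1.01. miR-204-5p differed by -0.77 (adjusted p = 0.046), having fallen in both preparations, by 1.35 in whole tissue and by 2.02 in epithelial cells on the log2 scale. miR-9-3p differed by 3.63 (adjusted p = 0.046), with 17 and 4 counts in the epithelial caput libraries and 0 in both epithelial corpus libraries. The whole-tissue corpus libraries held 0 and 1 counts, so this difference depends on how a count of 0 is treated and gives no bound. edgeR, which called 4 of the 6, gave an adjusted p of 0.89 for it and of 0.058 for miR-204-5p. miR-150-5p, a lymphocyte miRNA, differed by -2.10 (adjusted p = 0.046), from 1.37 to -0.61. In 9 fits that each left out 1 caput or corpus library, miR-181c-5p kept an adjusted p below 0.05 in 4, miR-205-5p in 2, miR-204-5p and miR-9-3p in 1 each, and miR-141-3p and miR-150-5p in 0. The differences kept their signs in all 9, between 0.77 and 1.21 for miR-181c-5p, 0.65 and 1.01 for miR-205-5p, -1.08 and -0.60 for miR-204-5p, 0.55 and 0.83 for miR-141-3p and -2.65 and -1.74 for miR-150-5p. That of miR-9-3p lay between 2.81 and 4.53, with the same limit of counts at or near 0.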

How the results depend on the processing

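The number of miRNAs that changed was 100 and lay between 68 and 127 under the other tests, scalings and filters, among them 101 with edgeR's quasi-likelihood test and 77 with DESeq2's Wald test. Without a minimum fold change it was 198, with 89 higher and 109 lower. Library totals gave 76 higher and 35 lower, and a filter of 10 counts in each of the 5 libraries left 34 lower. Leaving out 1 library gave between 79 and 103, the lowest without the second corpus library. With a CPM threshold for presence, 18 miRNAs were found in the caput alone instead of 30, and 29 in the corpus alone instead of 22. In epithelial cells, leaving out 1 library gave between 10 and 25. For the interaction, library totals gave 3, and leaving out 1 library gave between 0 and 4. Replicate numbers are shared by caput and corpus for 2 pairs, whose deviations correlated at -0.02 and -0.08. The other combinations of a caput and a corpus library gave values from -0.06 to 0.08. The deviations of the 2 corpus libraries mirror each other, so these values cannot show whether the samples were paired. A fit with the replicate block called 102, the 2 skeletal and cardiac muscle markers among them. No change that was called turned its sign. Of 122 miRNAs with a negative log2 fold change that did not pass, 48 turned positive with library totals, among them miR-103-3p (0.32), miR-25-3p (0.33) and, of those named by the rule, let-7f-5p at 0.082, miR-10b-5p at 0.11, miR-126a-5p at 0.16, miR-221-5p at 0.047, miR-29a-3p at 0.071 and miR-34c-5p at 0.15 (log2). miR-146a-5p ranged from -0.037 to 0.47 and miR-200c-5p from -1.12 to 0.40 when 1 library was left out. miR-205-5p, at -0.03, became 0.0091 with DESeq2's Wald test, 0.016 with its size factors, 0.30 with library totals, 0.00775 with all miRNAs of 1 count or more, 0.0015 with 10 counts in each library, 0.011 with the 5 libraries alone and 0.0073 with TMM factors over the whole table (added after seeing the data), and ranged from -0.093 to 0.092 when 1 library was left out. The causes were not tested.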
